A study of Mus musculus with 46 samples.

Results

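C9orf72 and 6 further genes of the autophagy-lysosome system were followed in mouse embryonic fibroblasts (MEFs) in which the transcription factor ATF4 was raised with borrelidin or removed by gene editing. The 7 genes are C9orf72, Stx17, Retreg1, Rragd, Laptm4b, Vps13b and Atp6v1f, chosen by name for their role, with earlier results of these data known. They are 7 of the 55416 gene rows of a count table. A member under 5 CPM (counts scaled to library size) on average was to be left out, and all 7 passed that level and the filter on low counts, which 8986 rows passed.

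Gene expression was measured by RNA-seq in 46 libraries labelled as biological replicates. The groups were ATF4 KO MEFs given borrelidin (12 libraries), ATF4 KO MEFs given vehicle (11), wild type MEFs with borrelidin (12) and wild type MEFs with vehicle (11). Borrelidin, an inhibitor of threonyl-tRNA synthetase that triggers the amino acid response, was given at 600 nM in DMSO for 7 h, and the vehicle was DMSO alone for the same time. The wild type MEFs were a purchased line and the ATF4 KO line was made in the laboratory with CRISPR/Cas9 and cell sorting. Loss of ATF4 and other differences between these cell lines therefore cannot be told apart. Ages, sexes and strains of the source embryos were not used here.

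Each library held 2047362 to 3467765 counts on gene rows. Row labels were taken as gene names only in 3 stretches of GRCm38, whose tested genes span bases 9071260 to 37007773 of chromosome 15 (66 genes), 5644090 to 55392237 of chromosome 4 (216 genes) and 13834458 to 31516811 of chromosome 6 (62 genes). Inside them, 8 of 8 genes of families that most cells use, such as ribosomal proteins and proteasome subunits, reached 5 CPM, against 91 of 317 (28.7%) on rows outside. Atf4 itself, 36 core autophagy genes and the 12 common fibroblast markers looked for all lay outside, so neither the deletion nor the cell type was checked here by its own transcripts. Further, 14 libraries stood apart from the other 32 on the second principal component (22.2% of the variance). They comprised 3 ATF4 KO libraries with borrelidin, 3 ATF4 KO libraries with vehicle and 8 wild type libraries with vehicle. All 12 wild type libraries with borrelidin belonged to the 32. Where a result changed its call without these libraries, or with the library set as a block in the model, those values are given too, and what sets them apart was not tested.

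Autophagy encloses cytoplasm in a double membrane, the autophagosome, which then fuses with a lysosome for digestion. C9orf72 forms a complex with SMCR8 and WDR41 that acts on small GTPases of this route and of the lysosome, and a repeat expansion in its human counterpart is a common inherited cause of amyotrophic lateral sclerosis and frontotemporal dementia. Stx17 encodes a SNARE protein of the finished autophagosome, Retreg1 (FAM134B) a receptor that brings endoplasmic reticulum to autophagosomes, and Rragd a Rag GTPase that helps bring the kinase mTORC1 to amino acid-replete lysosomes. Laptm4b is a lysosomal membrane protein, Atp6v1f is the F subunit of the proton pump (V-ATPase) that acidifies lysosomes, and Vps13b is a large lipid transfer protein of the Golgi and endosomes. ATF4, whose translation rises when tRNAs are uncharged, is known to act on autophagy genes under amino acid shortage through composite C/EBP-ATF sites.

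The promoter windows of the genes the results turn on are shown because ATF4 reads such sites, and because the groups separated C9orf72 and Retreg1 in opposite ways. Windows of 300 bases (250 before to 50 after each start) were taken from RefSeq (GRCm38.p6), which held 8 windows for 5 of the 7 members, Laptm4b and Vps13b not being matched. The forms searched were read on both strands and comprised the C/EBP-ATF form TTGCATCA, the looser form TGATGNAA, which overlaps the first on the opposite strand, and the CLEAR-type E-box CACGTG read by the lysosomal regulator TFEB. A cyclic AMP response element, TGACGTCA, was added after the windows were read. TTGCATCA stood in 0.895% of 32851 RefSeq windows, TGATGNAA in 3.97%, CACGTG in 7.15% and TGACGTCA in 1.79%. None of the 4 was in the single windows of C9orf72, Stx17, Rragd and Atp6v1f. Of the 4 windows of Retreg1, the first held TGACGTCA, beginning at base -148 from the start, and the last held CACGTG at base -188, both in capitals below. A match is a string of letters and no evidence of a bound site. The shares are per window, and Retreg1 had 4 windows where C9orf72 had 1, so their chances of a match were unequal. The C9orf72 window lies at chr4:35225787-35226086 on the minus strand and is 67.7% G and C. The Retreg1 windows lie on the plus strand at chr15:25843048-25843347 and chr15:25942429-25942728.
C9orf72: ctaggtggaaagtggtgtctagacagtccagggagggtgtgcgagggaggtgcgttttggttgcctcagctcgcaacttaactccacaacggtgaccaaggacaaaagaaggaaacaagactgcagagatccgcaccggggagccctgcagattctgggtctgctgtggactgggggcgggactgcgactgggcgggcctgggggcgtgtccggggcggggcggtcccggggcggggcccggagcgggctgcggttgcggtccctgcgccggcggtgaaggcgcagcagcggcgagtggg
Retreg1, first window: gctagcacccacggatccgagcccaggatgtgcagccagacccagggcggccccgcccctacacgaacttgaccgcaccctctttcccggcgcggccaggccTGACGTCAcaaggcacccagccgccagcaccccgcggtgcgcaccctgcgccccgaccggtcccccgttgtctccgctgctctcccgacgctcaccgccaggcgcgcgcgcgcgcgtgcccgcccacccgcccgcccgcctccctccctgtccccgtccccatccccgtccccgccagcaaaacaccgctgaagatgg
Retreg1, last window: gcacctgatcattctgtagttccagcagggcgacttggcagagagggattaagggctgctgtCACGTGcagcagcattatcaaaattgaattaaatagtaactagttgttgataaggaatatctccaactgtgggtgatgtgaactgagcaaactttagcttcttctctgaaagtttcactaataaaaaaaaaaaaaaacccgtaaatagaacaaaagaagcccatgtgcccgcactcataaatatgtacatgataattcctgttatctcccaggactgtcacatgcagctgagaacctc

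Borrelidin raised C9orf72 3.84-fold in wild type MEFs and 1.39-fold in ATF4 KO MEFs, and the difference between these responses was the largest among the 7 genes. C9orf72 (ENSMUSG00000028300) lies on chromosome 4 from 35191285 to 35226175 on the minus strand. Levels are CPM normalized by the trimmed mean of M-values (TMM), and fold changes are on the log2 scale with standard errors (SE) from edgeR's quasi-likelihood test and p-values adjusted over all 8986 rows. Wild type MEFs with borrelidin had 188 CPM at the lowest, 228 at the median and 294 at the highest, against 45.1, 57.7 and 82.8 CPM in wild type MEFs with vehicle. All 12 treated libraries lay above all 11 vehicle libraries, and in bulk RNA more of some cells and more RNA per cell cannot be told apart. The log2 fold change, called ATF4 activity here, was 1.94 (SE 0.13, adjusted p = 4.6e-17, edgeR). In ATF4 KO MEFs, levels were 57.2, 97.7 and 117 CPM with borrelidin, against 51.6, 68.0 and 79.3 CPM with vehicle. These groups overlapped, with 9 of the 12 treated libraries above every vehicle library, and the log2 fold change was 0.47 (SE 0.11, adjusted p = 0.00084, edgeR). The wild type response exceeded that of ATF4 KO by 1.47 on the log2 scale (SE 0.16, adjusted p = 3.9e-10, edgeR).

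**Figure D1:**
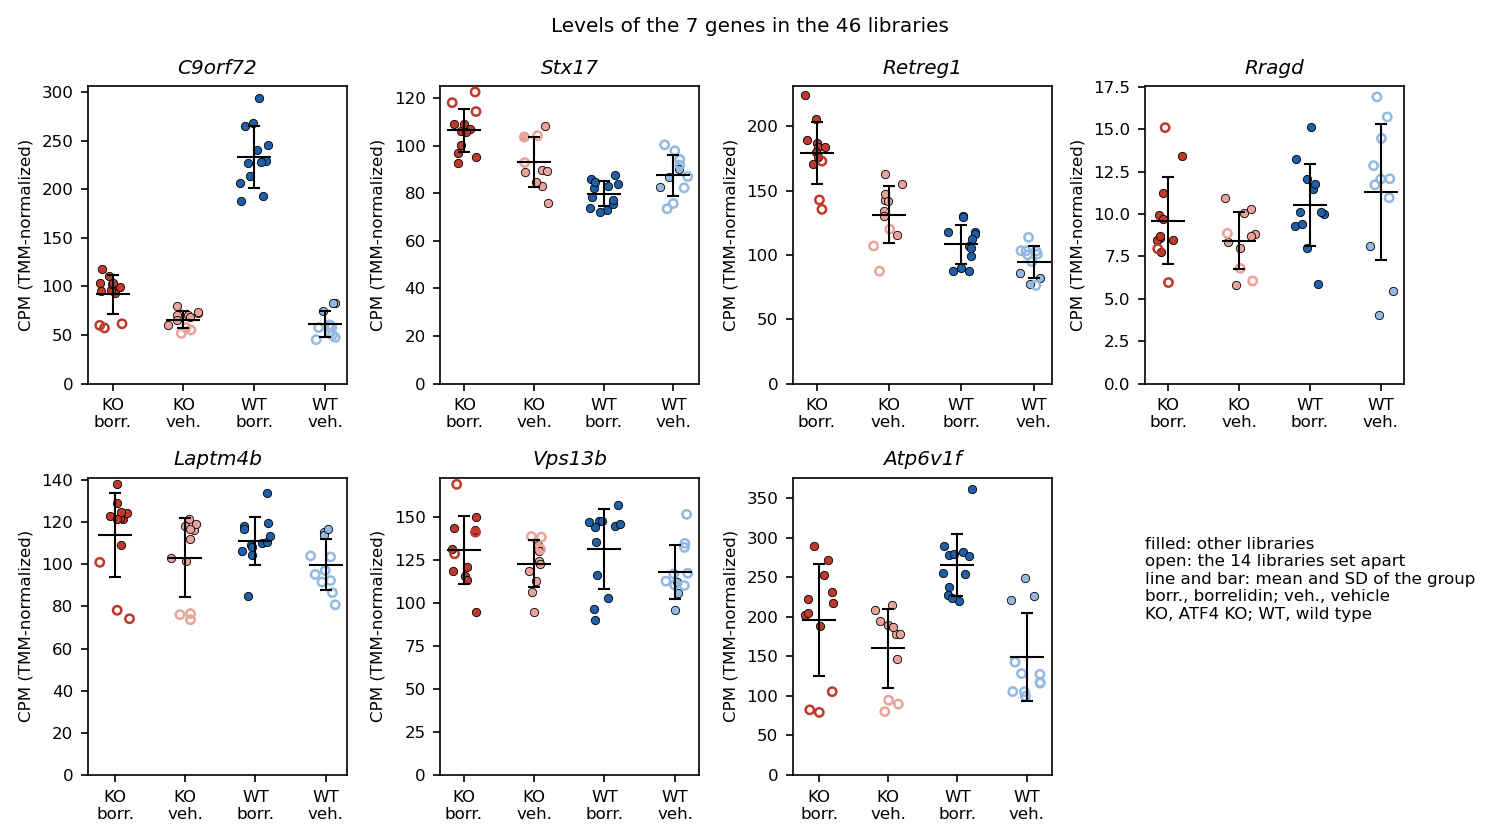
Levels of the 7 genes (TMM-normalized CPM, vertical axis) in every library, by group (horizontal axis), with open circles for the 14 libraries that stood apart, filled circles for the other 32, and the mean and SD of each group. C9orf72 in wild type with borrelidin (188 to 294 CPM) lies clear of the other 3 groups, and the open circles of Atp6v1f lie below its filled ones in each group that holds both.

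The increase of C9orf72 was smaller in wild type without the 14 libraries and remained called. The 3 remaining wild type vehicle libraries had 74.7 to 82.8 CPM, and the 8 that stood apart 45.1 to 60.4 CPM. On the other 32 libraries, ATF4 activity was 1.54 (adjusted p = 9.3e-09, edgeR), the response in ATF4 KO 0.54 (adjusted p = 4.2e-07) and the difference 1.00 (adjusted p = 3.5e-07). When the library set was a block, the difference was 1.10 (adjusted p = 3.1e-12). In ATF4 KO without these libraries the groups did not overlap, at 92.9 to 117 CPM in 9 libraries with borrelidin, against 60.6 to 79.3 CPM in 8 with vehicle. The 3 treated ATF4 KO libraries that stood apart had 57.2 to 61.5 CPM, against 51.6 to 57.6 CPM in the 3 vehicle libraries that did. A processed pseudogene on the same strand, Gm12366, lies inside the gene and averaged 8.17 CPM.

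Between the genotypes, C9orf72 differed under borrelidin and was not called under vehicle. ATF4 KO MEFs with borrelidin lay below every library of wild type MEFs with borrelidin in 12 of 12 libraries, with a log2 fold change of -1.35 (SE 0.11, adjusted p = 3.7e-15, edgeR). Under vehicle, ATF4 KO MEFs had 51.6 to 79.3 CPM, against 45.1 to 82.8 CPM in wild type MEFs, and the log2 fold change was 0.12 (95% interval -0.11 to 0.35, adjusted p = 0.44, edgeR). This value was -0.20 (adjusted p = 0.22) without the 14 libraries. C9orf72 was the one member with every library of wild type with borrelidin above every library of the other 3 groups, which held for 1.83% of all rows tested.

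Stx17 (ENSMUSG00000061455, chromosome 4, 48124915 to 48186507, plus strand), the autophagosomal SNARE, rose with borrelidin in ATF4 KO MEFs and was not called in wild type MEFs. Wild type MEFs had 72.4 CPM at the lowest, 80.5 at the median and 87.7 at the highest with borrelidin, against 73.5, 87.1 and 100.4 CPM with vehicle. The log2 fold change was -0.13 (95% interval -0.27 to 0.01, adjusted p = 0.096, edgeR), with overlapping groups. ATF4 KO MEFs had 92.7, 107 and 123 CPM with borrelidin, against 75.9, 89.7 and 108 CPM with vehicle, a log2 fold change of 0.19 (SE 0.06, adjusted p = 0.013, edgeR). The response of wild type minus that of ATF4 KO was -0.33 (SE 0.09, adjusted p = 0.0040, edgeR). This call was lost without the 14 libraries (-0.29, adjusted p = 0.095) and with the library set as a block (-0.23, adjusted p = 0.057). Under borrelidin all 12 ATF4 KO libraries lay above all 12 wild type libraries, with a log2 fold change of 0.42 (SE 0.06, adjusted p = 1.0e-07, edgeR), and under vehicle it was 0.09 (adjusted p = 0.26).

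Retreg1 (ENSMUSG00000022270, chromosome 15, 25843180 to 25973687, plus strand), the receptor for degradation of endoplasmic reticulum, was higher in ATF4 KO than in wild type MEFs under both treatments. With borrelidin it had 135 CPM at the lowest, 182 at the median and 224 at the highest in ATF4 KO MEFs, against 87.7, 109.6 and 130.0 CPM in wild type MEFs. With vehicle it had 87.4, 134 and 163 CPM in ATF4 KO MEFs, against 76.3, 99.9 and 114 CPM in wild type MEFs. The groups did not overlap under borrelidin and overlapped under vehicle, where 9 of 11 ATF4 KO libraries lay above every wild type library. The log2 fold changes of ATF4 KO over wild type were 0.73 under borrelidin (SE 0.09, adjusted p = 1.0e-09, edgeR) and 0.47 under vehicle (SE 0.09, adjusted p = 4.1e-05, edgeR). Under vehicle the value was 0.79 (adjusted p = 1.1e-06) without the 14 libraries and 0.37 (adjusted p = 0.0010) with the library set as a block. Among libraries that stood apart, ATF4 KO MEFs with vehicle had 87.4 to 120.0 CPM, against 76.3 to 114 CPM in wild type MEFs with vehicle, and these ranges overlapped.

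Borrelidin raised Retreg1 in ATF4 KO MEFs by a log2 fold change of 0.45 (SE 0.09, adjusted p = 8.5e-05, edgeR), with 10 of 12 treated libraries above every vehicle library. In wild type MEFs the value was 0.20 (95% interval -0.03 to 0.42, adjusted p = 0.13, edgeR). Opposite to C9orf72, the fitted response was thus smaller in wild type, but the difference of -0.25 was not called (adjusted p = 0.11), and it was -0.0013 without the 14 libraries and -0.39 (adjusted p = 0.025) with the library set as a block. Without the 14 libraries, wild type MEFs had 87.7 to 130.0 CPM with borrelidin, against 77.4 to 85.7 CPM in the 3 remaining vehicle libraries. The wild type log2 fold change was then 0.41 (adjusted p = 0.069, edgeR). When the 2 wild type groups were fitted alone, with all their libraries, it was 0.22 and called (adjusted p = 0.029, edgeR).

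Rragd (ENSMUSG00000028278, chromosome 4, 32983037 to 33022180, plus strand), the Rag GTPase, was the weakest of the 7 genes, and its direction turned with the libraries used. Wild type MEFs had 5.88 CPM at the lowest, 10.1 at the median and 15.1 at the highest with borrelidin, against 4.03, 12.1 and 16.9 CPM with vehicle. ATF4 KO MEFs had 5.95, 8.66 and 15.1 CPM with borrelidin, against 5.82, 8.72 and 10.9 CPM with vehicle. Groups overlapped in every comparison, and borrelidin changed neither genotype past the threshold, with log2 fold changes of -0.11 in wild type (adjusted p = 0.59, edgeR) and 0.19 in ATF4 KO (adjusted p = 0.43, edgeR). Under vehicle ATF4 KO MEFs were lower than wild type MEFs by a log2 fold change of -0.44 (SE 0.17, adjusted p = 0.045, edgeR), which with the replicate number as a block was -0.43 (adjusted p = 0.054). With the library set as a block it was -0.30 (adjusted p = 0.21, edgeR) and not called. On the other 32 libraries this value was 0.59 (adjusted p = 0.090), and ATF4 activity was 0.84 (adjusted p = 0.017). Both then rest on 3 wild type vehicle libraries at 4.03 to 8.08 CPM, where the 8 that stood apart had 10.9 to 16.9 CPM.

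Atp6v1f (ENSMUSG00000004285, chromosome 6, 29467718 to 29470512, plus strand), the V-ATPase subunit, was called higher with borrelidin in wild type MEFs on all libraries. That call was lost without the 14 libraries and with the library set as a block. Wild type MEFs had 220.1 CPM at the lowest, 266 at the median and 362 at the highest with borrelidin, against 99.5, 127 and 249 CPM with vehicle. The log2 fold change was 0.84 (SE 0.19, adjusted p = 0.00031, edgeR). Within wild type vehicle, the 8 libraries that stood apart had 99.5 to 143 CPM and the other 3 had 221 to 249 CPM, inside the range of the treated libraries. Without the 14 libraries the log2 fold change was 0.19 (adjusted p = 0.42), and with the library set as a block it was 0.06 (adjusted p = 0.72).

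In ATF4 KO MEFs, Atp6v1f had 79.2, 211 and 289.6 CPM with borrelidin, against 80.1, 178 and 215 CPM with vehicle (log2 fold change 0.29, adjusted p = 0.26, edgeR). The same gap appeared within both groups. Libraries that stood apart had 79.2 to 105 CPM with borrelidin, against 80.1 to 94.6 CPM with vehicle, and the others had 188 to 289.6 CPM, against 146 to 215 CPM. On the other 32 libraries the increase was called (0.30, adjusted p = 0.0060), as it was with the library set as a block (0.24, adjusted p = 0.011). The difference of response was 0.55 (adjusted p = 0.10), and with the replicate number as a block 0.65 (adjusted p = 0.010). It was -0.11 (adjusted p = 0.74) without the 14 libraries. ATF4 KO MEFs were lower than wild type MEFs under borrelidin by a log2 fold change of -0.44 (SE 0.18, adjusted p = 0.041, edgeR), which was -0.21 (adjusted p = 0.028) without them.

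Laptm4b and Vps13b passed the threshold in none of the 5 comparisons, and DESeq2 gave the same calls. Their lowest unadjusted p-values in edgeR were 0.11 and 0.10. Laptm4b (ENSMUSG00000022257, chromosome 15, 34238028 to 34284302, plus strand) had 85.0 CPM at the lowest, 110.3 at the median and 134 at the highest in wild type MEFs with borrelidin, against 80.7, 97.0 and 117 CPM with vehicle. ATF4 KO MEFs had 74.1, 122 and 138 CPM with borrelidin, against 73.7, 112 and 121 CPM with vehicle. All groups overlapped, and the log2 fold changes with borrelidin were 0.16 in wild type (95% interval -0.04 to 0.35) and 0.14 in ATF4 KO (-0.05 to 0.33). As with Atp6v1f, libraries that stood apart were low, at 73.7 to 76.5 CPM in ATF4 KO with vehicle, where the other 8 had 101 to 121 CPM. When the library set was a block, the difference of response was -0.32 (adjusted p = 0.0083) and ATF4 KO over wild type was -0.19 under vehicle (adjusted p = 0.023) and 0.14 under borrelidin (adjusted p = 0.042). The last was also called without the 14 libraries (0.15, adjusted p = 0.031).

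Vps13b (ENSMUSG00000037646, chromosome 15, 35371160 to 35931229, plus strand) had 90.0 CPM at the lowest, 144 at the median and 157 at the highest in wild type MEFs with borrelidin, against 95.8, 113 and 152 CPM with vehicle. In ATF4 KO MEFs it had 95, 130.2 and 169 CPM with borrelidin, against 95, 125 and 139 CPM with vehicle. These ranges overlapped. In wild type the log2 fold change was 0.15 (95% interval -0.03 to 0.34), in ATF4 KO it was 0.09 (-0.09 to 0.27), and the wild type value was called only with the library set as a block (0.32, adjusted p = 0.016). The end of Vps13b overlaps Cox6c, a cytochrome c oxidase subunit gene on the opposite strand with 267 CPM on average, over 5344 bases. The strand setting of the counting is not given in the sources used here, so reads of this overlap could have been assigned to either gene or dropped.

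**Figure D2:**
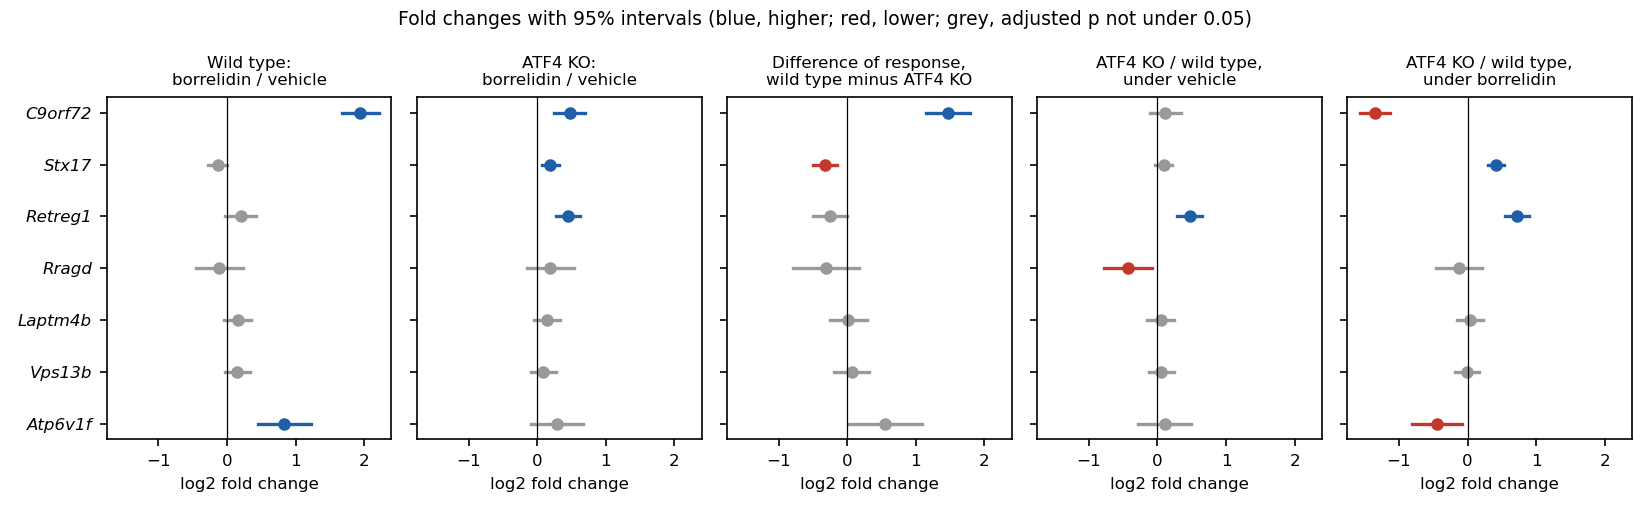
Log2 fold changes (horizontal axes) of the 7 genes (vertical axis) in the 5 comparisons, with points for the fitted values, bars for 95% intervals, blue for higher, red for lower and grey for values not past an adjusted p of 0.05. C9orf72 stands at 1.94 in wild type, 0.47 in ATF4 KO and -1.35 between the genotypes under borrelidin, while Laptm4b and Vps13b are grey in every panel.

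Counted together, few of the fitted responses of the 7 genes to borrelidin passed the threshold. For ATF4 activity, 2 of 7 were higher (C9orf72 and Atp6v1f), where 25.5% of all rows tested were higher and 32% lower. In ATF4 KO MEFs borrelidin raised 3 of 7 (C9orf72, Stx17 and Retreg1), where 15% of rows were higher and 15.3% lower. The difference of response was positive for 1 (C9orf72) and negative for 1 (Stx17), with 16.5% and 17.1% of rows. Under vehicle, ATF4 KO MEFs were higher in 1 (Retreg1) and lower in 1 (Rragd), with 18.1% and 17.2% of rows, and under borrelidin higher in 2 (Stx17 and Retreg1) and lower in 2 (C9orf72 and Atp6v1f), with 25.7% and 24.1% of rows. With a background this large, counts of 1 to 3 members are no result about the group. Median log2 fold changes of the 7 were 0.16 for ATF4 activity, 0.19 in ATF4 KO and 0.01 for the difference, beside -0.06, -0.03 and -0.05 over all rows tested. Over the 344 tested genes of the 3 stretches, where all 7 lie, these medians were 0.17, 0.03 and 0.16.

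The stricter adjusted p of 1e-10 that the study used left C9orf72 alone among the 7, for ATF4 activity (1.31% of rows) and between the genotypes under borrelidin (5.49% of rows). The rows past it were 0.49% for borrelidin in ATF4 KO, 0.501% for the difference and 2.63% between the genotypes under vehicle, and held no member. Groups that did not overlap at all were found for C9orf72 in ATF4 activity (6.25% of rows) and for C9orf72, Stx17 and Retreg1 between the genotypes under borrelidin (11.1% of rows). In ATF4 KO with borrelidin against vehicle and between the genotypes under vehicle, 2.5% and 5.38% of rows were so separated, and each of the 7 genes overlapped. Among the other 32 libraries, C9orf72 and Retreg1 were separated in both responses to borrelidin, with 11.1% of rows in wild type and 14.3% in ATF4 KO.

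**Figure D3:**
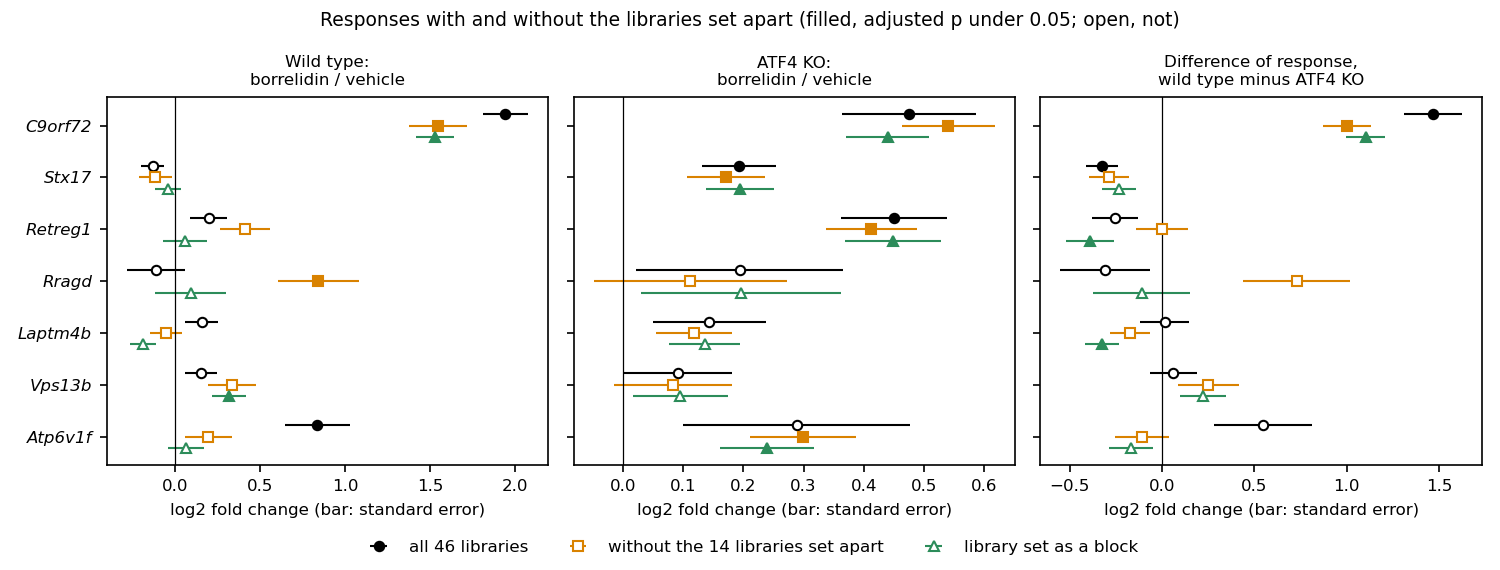
Log2 fold changes with borrelidin (horizontal axes, bars for the SE) of the 7 genes (vertical axis) in wild type, in ATF4 KO and as their difference, fitted on all 46 libraries, without the 14 that stood apart, or with the library set as a block, filled where the adjusted p is under 0.05. C9orf72 is filled in all 9 positions, whereas Atp6v1f in wild type falls to 0.19 and 0.06, and Rragd in wild type stands at -0.11 with all libraries and 0.84 without the 14.

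Among libraries of the same group, Laptm4b, Atp6v1f and C9orf72 moved together, while Stx17 and Vps13b ran against them and Rragd did not follow them. Within groups, the log2 levels of Laptm4b and Atp6v1f had a Pearson correlation of 0.87, those of C9orf72 and Atp6v1f 0.75, and those of C9orf72 and Laptm4b 0.64, over 46 libraries that share this split. Rragd had -0.22 with C9orf72, -0.06 with Atp6v1f and 0.08 with Laptm4b. In the same order, Stx17 had -0.45, -0.36 and -0.39, Vps13b -0.34, -0.50 and -0.38, and Retreg1 0.30, 0.29 and 0.38. Before group means were taken out, C9orf72 and Laptm4b had 0.41, C9orf72 and Atp6v1f 0.75, and Laptm4b and Atp6v1f 0.81. Per kilobase of annotated exon, mean levels ordered the genes as Atp6v1f (183 CPM per kb), Laptm4b (55.3), Retreg1 (31.2), C9orf72 (25.0), Stx17 (15.5), Vps13b (5.93) and Rragd (1.93).

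Of lists with 168 autophagy and lysosome genes, 22 lie in the 3 stretches, 20 passed the filter, and 13 of these are further genes of the system. For ATF4 activity, 8 of the 13 were higher and 2 lower (median log2 fold change 0.36), where 138 of the 344 tested genes of the stretches were higher and 56 lower (median 0.17). In ATF4 KO, borrelidin raised 1 of the 13 and lowered 5, where it raised 88 and lowered 55 of the 344. The difference of response was positive for 5 and negative for 1, where it was positive for 100 and negative for 50 of the 344. Without the 14 libraries that stood apart, 10 of the 39 values of these genes in the 3 responses lost their call, 3 gained one and 1 turned in direction. For ATF4 activity the lost calls were Glipr2, Fbxl4, Rab2a, Ubap1, Ggh and Abca1, and Chmp5 turned. For the difference they were Abca1, Plekhf2, Rab2a and Vcp. The counts above for ATF4 activity and the difference thus depend on the 14 libraries.

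Among the further regulators and receptors, the response differed most for Glipr2 and Trp53inp1. Glipr2 (GAPR-1), known as a Golgi protein that binds Beclin 1, rose in wild type MEFs (log2 fold change 0.72, adjusted p = 6.7e-06, edgeR) and fell in ATF4 KO MEFs (-0.36, adjusted p = 0.011). Its wild type value was 0.35 (adjusted p = 0.082) without the 14 libraries and 0.27 (adjusted p = 0.026) with the library set as a block. Trp53inp1, a p53-induced protein that binds LC3, likewise rose in wild type MEFs (0.55, adjusted p = 0.00079) and fell in ATF4 KO MEFs (-0.37, adjusted p = 0.014). Its level without borrelidin was higher in ATF4 KO, at 31.1 to 62.8 CPM with vehicle, against 15.8 to 28.9 CPM in wild type with vehicle, with no overlap. Both differences kept their call without the 14 libraries, at 0.79 for Glipr2 (adjusted p = 2.1e-07) and 1.24 for Trp53inp1 (adjusted p = 0.00017).

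Dap, a negative regulator of autophagy, fell in both genotypes, with log2 fold changes of -0.57 in wild type (adjusted p = 0.00042, edgeR) and -0.69 in ATF4 KO (adjusted p = 8.0e-08). Nipsnap3b fell in ATF4 KO MEFs (-0.49, adjusted p = 0.00036) and missed the threshold in wild type MEFs (-0.29, adjusted p = 0.050), where it passed without the 14 libraries (-0.66, adjusted p = 0.0033). Fbxl4, which restrains mitophagy, was called higher in wild type MEFs on all libraries (0.54, adjusted p = 0.00031), and neither without the 14 (0.31, adjusted p = 0.22) nor with the library set as a block (0.33, adjusted p = 0.072). Vcp, an AAA ATPase that extracts ubiquitinated proteins, fell in ATF4 KO MEFs (-0.30, adjusted p = 0.0011).

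Among fusion and endosomal genes, Plekhf2, a phosphoinositide-binding protein of endosomes, rose in both genotypes. It had 92.3 to 153 CPM in wild type MEFs with borrelidin, against 39.9 to 81.2 CPM with vehicle, and 107 to 243 CPM in ATF4 KO MEFs with borrelidin, against 77.1 to 140.5 CPM with vehicle. The log2 fold changes were 1.24 (adjusted p = 5.3e-09, edgeR) and 0.60 (adjusted p = 9.4e-05), and the groups overlapped in ATF4 KO only. Rab2a, a GTPase of autophagosome-lysosome fusion (0.34, adjusted p = 0.00028), and the ESCRT subunits Chmp5 (0.38, adjusted p = 0.0093) and Ubap1 (0.36, adjusted p = 0.0019) were called higher in wild type MEFs on all libraries. None of these calls held without the 14 libraries, where Rab2a was at 0.09 (adjusted p = 0.51), Chmp5 at -0.077 (adjusted p = 0.61) and Ubap1 at 0.0030 (adjusted p = 0.99), nor with the library set as a block. Ubap1 had 224 to 281 CPM in wild type MEFs with borrelidin, against 241 to 248 CPM in the 3 remaining vehicle libraries. In ATF4 KO MEFs, Ubap1 was called higher without the 14 (0.17, adjusted p = 0.0082). Of lysosomal genes, the enzyme Ggh was called higher (0.56, adjusted p = 0.0054) and the cholesterol exporter Abca1 lower (-1.15, adjusted p = 0.0018) in wild type MEFs on all libraries, and the lipid phosphatase Pip4p2 gave 0.06 (adjusted p = 0.51). Both calls were lost without the 14 libraries, at 0.0097 for Ggh (adjusted p = 0.98) and -0.16 for Abca1 (adjusted p = 0.82), and with the library set as a block, at -0.10 (adjusted p = 0.59) and -0.01 (adjusted p = 0.98). Pip4p2 with the block was -0.19 (adjusted p = 0.020).

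**Figure D4:**
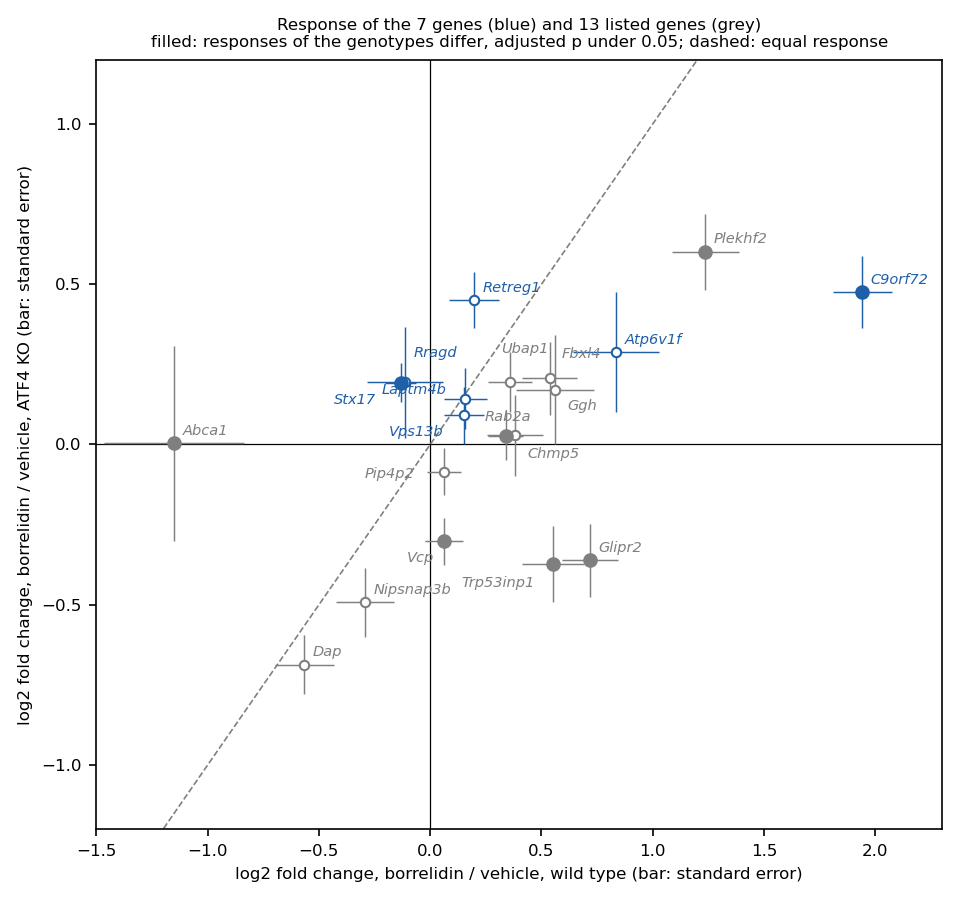
Log2 fold change with borrelidin in wild type (horizontal axis) and in ATF4 KO (vertical axis) of the 7 genes (blue) and the 13 listed genes (grey), with SE bars, filled where the response differed between the genotypes and a dashed line for equal response. C9orf72 lies farthest to the right (1.94 and 0.47), and Glipr2 and Trp53inp1 lie below the horizontal axis and right of the vertical one.

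The 5 protein-coding genes of the stretches whose levels followed C9orf72 most closely were, by Pearson correlation of log2 CPM over the 46 libraries among 283 genes, Mdfic (0.96), Mtdh (0.94), Ncbp1 (0.92), Anp32b (0.92) and Tars (0.92). Tars encodes the threonyl-tRNA synthetase that borrelidin inhibits. It averaged 3217 ± 164 CPM in wild type MEFs with borrelidin, against 931 ± 222 CPM with vehicle, and 777 ± 83.5 CPM in ATF4 KO MEFs with borrelidin, against 622 ± 63.6 CPM with vehicle (SD, n = 12, 11, 12 and 11). Ncbp1, a subunit of the nuclear cap-binding complex, averaged 886 ± 44.1 CPM in wild type MEFs with borrelidin, against 572 ± 142 CPM with vehicle, and 610.1 ± 82.4 CPM in ATF4 KO MEFs with borrelidin, against 562 ± 50.8 CPM with vehicle. All 5 genes had their highest mean in wild type with borrelidin, which their choice by likeness to C9orf72 in these same libraries largely fixes.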

How the data were processed

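RNA was sequenced from 46 MEF libraries in the 4 groups given above. The authors aligned reads with HISAT2 and deposited raw read counts per gene identifier, without normalization or pooling. Per the submitters' processing notes the counter was HTSeq and the build mm10, whereas the methods of the study give feature counts. Neither tool versions nor annotation release nor strand setting is stated there. Rows that name no gene (69% of reads for no feature) stayed out of library sizes and tests. Identifiers were matched to GENCODE M21 (52083 of 55416).

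Differential expression used the quasi-likelihood test of edgeR 4.0.16 in R 4.3.3, after filterByExpr by group and TMM normalization, with Benjamini-Hochberg adjustment at 0.05. ATF4 activity was high in wild type with borrelidin and was fitted with genotype, so its fold change is that of borrelidin in wild type. Contrasts between means of the 4 groups gave the remaining comparisons. DESeq2 1.42.0, limma 3.58.1 (voom), another normalization, no filter, a replicate block, and fits without the 14 libraries or with their set as a block were alternatives. So were a contrast of group means for ATF4 activity and fits of the 2 compared groups alone. Tables were made in Python 3.11.15, and the tests were checked on simulated counts. Those counts held no split of libraries like that of the 14, so the check does not cover it. Named genes are the 7 members, every listed gene of the 3 stretches that passed the filter, and the 5 genes most like C9orf72 (prior count of 2). A listed gene that is not reported here was left out of the lists and counts. Members, lists, stretches and the 14 libraries were chosen with earlier results of these data known.

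Replicate numbers come from the labels. Same-numbered ATF4 KO libraries with borrelidin and with vehicle deviated together in 11 of 11 pairs (correlation 0.18 to 0.78). In both of these groups the libraries that stood apart carry the numbers 1 to 3. Same-numbered libraries thus share that split, and the check cannot tell pairing of samples from it. Between wild type groups 2 of 11 pairs were over 0.1. No source says whether replicates were separate cultures beyond the label, so p-values measure the spread between these libraries. All 242 pairs of libraries within groups differed by more than sampling noise (chi-square over degrees of freedom at least 1.96).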

Additional observations from a re-analysis of the deposited data

Results flagged for a closer look

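Of the 20 genes tested, 8 responded to borrelidin differently in wild type and ATF4 KO MEFs by edgeR's test of the difference (wild type minus ATF4 KO, log2), where 3022 of all 8986 rows did, a share not far from theirs. The differences were 1.47 for C9orf72, -0.33 for Stx17, -1.16 for Abca1 (adjusted p = 0.039), 1.08 for Glipr2 (adjusted p = 1.1e-06), 0.64 for Plekhf2 (adjusted p = 0.0040), 0.31 for Rab2a (adjusted p = 0.023), 0.92 for Trp53inp1 (adjusted p = 8.0e-05) and 0.37 for Vcp (adjusted p = 0.0063). Without the 14 libraries that stood apart, the differences of C9orf72, Glipr2 and Trp53inp1 kept their call. Those of Stx17, Abca1 (-0.17), Plekhf2 (0.11), Rab2a (0.07) and Vcp (0.14) did not.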

How the results depend on the processing

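Of the 280 values of the 7 genes under alternatives, 255 kept direction and call, 12 lost the call, 8 gained it and 5 turned in direction. The other normalization and DESeq2 changed no call of the 7. Without a filter on low counts, Stx17 lost its calls in ATF4 KO (adjusted p = 0.13) and for the difference (adjusted p = 0.14), as did Rragd under vehicle (adjusted p = 0.21) and Atp6v1f between the genotypes under borrelidin (adjusted p = 0.068). Rragd under vehicle also lost its call with limma voom (adjusted p = 0.087). In fits of the 2 compared groups alone, it lost that call too (-0.44, adjusted p = 0.081, edgeR). There Retreg1 gained a call for ATF4 activity (0.22, adjusted p = 0.029, edgeR). With the replicate block, Rragd between the genotypes under vehicle was -0.43 and lost its call, Atp6v1f gained one for the difference (0.65), and no other call of the 7 changed. Without the 14 libraries, Rragd turned to 0.84 for ATF4 activity and 0.59 under vehicle, and Chmp5 to -0.077. With the library set as a block, Laptm4b turned to -0.32 for the difference and -0.19 under vehicle, Atp6v1f to -0.42 under vehicle, and, for ATF4 activity, Chmp5 to -0.13, Ggh to -0.10, Pip4p2 to -0.19 and Ubap1 to -0.013, with Ubap1 at -0.20 for the difference.

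Rows past the threshold numbered 5163 for ATF4 activity, 2721 for borrelidin in ATF4 KO, 3022 for the difference, 3172 between the genotypes under vehicle and 4474 under borrelidin. Without the 14 libraries the first was 941, the third 870 and the fourth 1849, and with the set as a block the first was 2133 and the third 1829. The second was 3695 without the 14 and 3872 with the block, and the fifth 4766 and 4917. At 1e-10 the counts were 118, 44, 45, 236 and 493. The cause was not tested. Among the 7 genes, depth limits Rragd most, at 4.03 to 16.9 CPM in about 2047362 to 3467765 counts a library.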
